A study of Mus musculus with 39 samples.

Results

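The genes described here are 10 genes of the mouse sperm tail, Odf1, Odf2, Odf4, Akap3, Akap4, Oaz3, Smcp, Tekt1, Tekt2 and Tekt4, chosen by name out of 21561 genes listed in both deposited count tables. All 10 were found under these symbols in both tables. RNA was sequenced from whole testis and gubernaculum of male C57BL/6J mice, in 39 libraries of which 24 were testis, with 3 biological replicates in each of 8 testis groups. WT testis was taken at P8, P23 and P40 (postnatal days 8, 23 and 40). INSL3-KI mice, in which the coding sequence of the mouse Insl3 gene is replaced at its own locus by that of the minke whale and which carry the replaced allele on both chromosomes, gave testis at the same 3 ages, and INSL3-KO mice, which lack Insl3, gave testis at P8 and P23. Insl3 encodes insulin-like peptide 3, the Leydig cell hormone that drives growth of the gubernaculum and descent of the testis, so the comparisons ask how testes of mice with a replaced or missing hormone differ from WT testes. The labels state that no animal had drugs or surgery. The replaced gene keeps the mouse promoter, and INSL3-KI and INSL3-KO are carried in every cell of the animal, so no cell type was targeted.

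A mouse sperm tail is built around an axoneme of microtubule doublets. Outer dense fibres run along the doublets, a mitochondrial sheath wraps the midpiece, and a fibrous sheath surrounds the fibres in the principal piece. Odf1, Odf2 and Odf4 encode proteins of or associated with the outer dense fibres, and Odf2 also encodes proteins of centriole appendages in other cells. Akap3 and Akap4 encode anchoring proteins that hold protein kinase A in the fibrous sheath, where the Akap4 product is the main structural protein. Smcp encodes a cysteine-rich protein of the sperm mitochondrial capsule, Oaz3 encodes the germ cell antizyme that inhibits ornithine decarboxylase, and tektins 1, 2 and 4 are filament proteins of the axonemal doublets. Transcripts of these genes are known to accumulate during meiosis and, for several, only in haploid spermatids, which first form in the weeks between P8 and P40.

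In the GRCm38 annotation (GENCODE M21) the outer dense fibre genes lie apart, Odf1 at chr15:38219203-38226735 (plus strand), Odf2 at chr2:29889221-29931746 (plus strand) and Odf4 at chr11:68921835-68927081 (minus strand). The anchoring protein genes are Akap3 at chr6:126853098-126874308 (plus strand) and Akap4 at chrX:7067519-7078609 (plus strand). Chromosome 3 holds Oaz3 at chr3:94432414-94443915 (minus strand) and Smcp at chr3:92583867-92588997 (minus strand), and the tektin genes are Tekt1 at chr11:72344722-72362442 (minus strand), Tekt2 at chr4:126322121-126325688 (minus strand) and Tekt4 at chr17:25454615-25476602 (plus strand).

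The testis libraries held between 33000204 and 42629270 counted reads, and the shared genes took between 94.2% and 97.9% of them. Levels below are CPM (counts divided by the library's size after TMM scaling over the 24 testis libraries), and levels of different genes are compared only as the authors' FPKM, which are per length. The deposited tables split the samples: the first holds WT and INSL3-KI libraries except WT at P23, and the second holds INSL3-KO libraries and WT at P23. INSL3-KI against WT at P8 and P40 and INSL3-KO against WT at P23 thus lie within a table, whereas in every other comparison of genotypes the table and the group cannot be told apart. Insl3 itself had 2722 to 3524 counts in P8 WT libraries, 15 to 33 in P8 INSL3-KI libraries and 613 to 906 in the libraries labelled P8 INSL3-KO, where it was reduced and not absent. At P23 it had 0, 5 and 0 counts in INSL3-KO libraries and 52, 66 and 84 in INSL3-KI libraries, against 20844 to 25238 in WT. In each INSL3-KI age group 1 library stood apart. P8 INSL3-KI replicate 2 had a summed level of 9 spermatocyte marker genes of 2181 CPM, against 568 and 704 in the other 2 libraries of its group. For the 10 sperm tail genes together, P40 INSL3-KI replicate 1 had a summed level of 1069 CPM against 228 and 237, and P23 INSL3-KI replicate 3 had 1183 CPM against 3087 and 3829.7. The libraries labelled P23 WT had summed levels of 9 elongating spermatid markers of 12759 to 15209 CPM, above the 8628 to 10563 CPM of P40 WT. The age of these WT libraries thus rests on their label alone and is in doubt, and whether P23 INSL3-KI and INSL3-KO testes are compared with WT of their own age was not tested.

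In P40 WT testis all 10 genes were abundant and their order by level per length could be read. Smcp stood highest, with a mean FPKM of 1627 ± 69.0 (SD, n = 3), followed by Odf2 with 1379 ± 104, Oaz3 with 1332 ± 142 and Odf1 with 857 ± 111. Akap4 had 535 ± 47.0 FPKM and Akap3 278 ± 12.0. The tektins and Odf4 were lowest, with Tekt1 at 232 ± 17.5, Tekt2 at 205 ± 30.5, Tekt4 at 182 ± 18.6 and Odf4 at 167 ± 6.03 FPKM. Neighbours in this order whose libraries overlapped were Odf2 and Oaz3, Tekt1 and Tekt2, Tekt2 and Tekt4, and Tekt4 and Odf4. The Oaz3 values need care, since 52.1% of its annotated exonic bases lie opposite exons of Tdrkh and 3.63% opposite Mrpl9, and whether the counting used strand is not given in the sources used here. The same holds for Tekt2, with 20.8% of its exonic bases opposite Gm12945. Counts and FPKM also imply a shorter Oaz3 gene model in the first table than in the second (0.28 to 0.291 of the median gene against 0.416 to 0.417), so values of Oaz3 compared across the tables rest on unlike models.

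**Figure D1:**
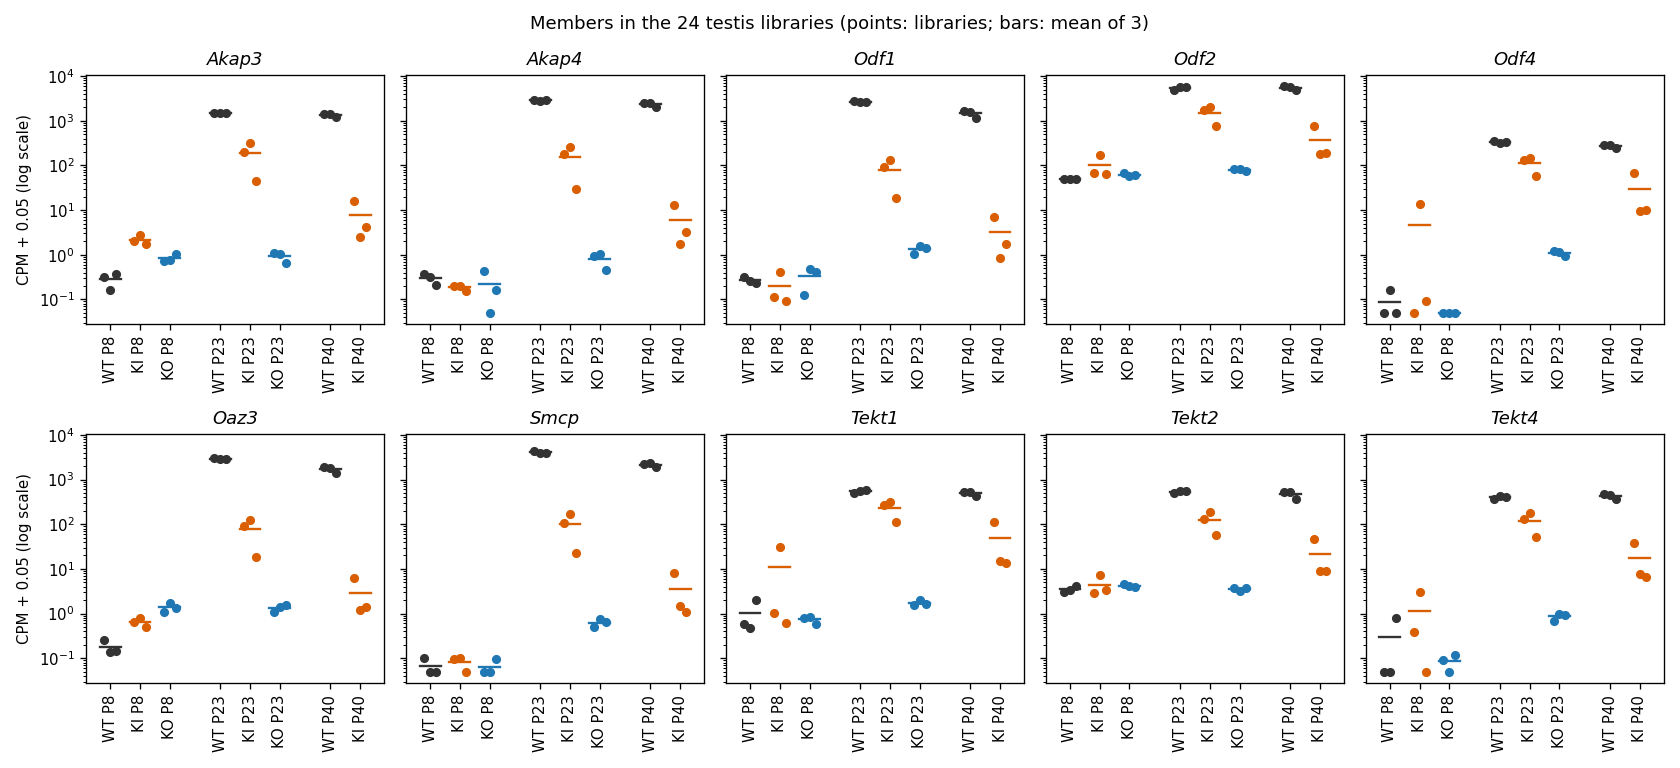
Level of each of the 10 sperm tail genes in 24 testis libraries, as CPM plus 0.05 on a log axis, with 1 point per library and a bar at the mean of 3, coloured by genotype (WT black, INSL3-KI orange, INSL3-KO blue). All 3 libraries of each mutant group at P23 and P40 lie below every WT library of the same age, and Odf2 and Tekt2 are the only members above 2.5 CPM in every P8 library.

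In WT testis all 10 genes rose between P8 and P40, against 31.9% of 16892 tested genes called higher. Akap4 had 0.324, 0.271 and 0.163 CPM in the 3 P8 libraries and 2534, 2506 and 1993 CPM at P40. Odf1 went from 0.275, 0.203 and 0.186 CPM to 1631, 1581 and 1176 CPM. Smcp had at most 2 counts in any P8 library and 2211, 2306 and 1956 CPM at P40, which makes it at least 30468-fold higher when the P8 level is set at the floor of 3 counts per library. These 3 genes were thus at or close to the limit of detection in the prepubertal testis. Odf2 differed from them, with 49.7, 48.9 and 49.4 CPM at P8 and 5956, 5759.8 and 4816 CPM at P40, a mean rise of 112-fold. Tekt2 also had a level well above the floor at P8, 2.95, 3.27 and 4.08 CPM, and rose 138-fold. The log2 fold changes ran from 6.75 for Odf2 to 13.63 for Oaz3 in the 9 genes other than Smcp, with adjusted p-values of 1.60e-08 to 4.63e-06 (edgeR).

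Set against P8 across the tables, WT testis labelled P23 gave the same call for all 10 genes, with 32.8% of tested genes called higher. Between the libraries labelled P23 WT and those of P40 WT no member was called in either direction by edgeR or DESeq2, and 5 had an unadjusted p under 0.05, against 1.64% of 16438 tested genes called lower and 3% higher. Smcp, Odf1, Oaz3 and Odf4 passed the p threshold while their changes stayed under 2-fold. Smcp had 4427, 4030.2 and 3979 CPM at P23, with a log2 fold change from P23 to P40 of −0.90 (SE 0.07) and an adjusted p of 6.91e-06 by edgeR. Odf1 gave −0.82 (SE 0.10) with an adjusted p of 1.10e-04, and Oaz3 −0.73 (SE 0.09) with 1.01e-04. For these 3 genes, and also for Odf4, Akap3 and Akap4, the libraries at the 2 ages did not overlap. By contrast Odf2, Tekt1, Tekt2 and Tekt4 had overlapping ranges at P23 and P40, with log2 fold changes between −0.13 and 0.12. Among all 16438 tested genes 8431 had an unadjusted p under 0.05 (edgeR). These 2 ages of WT come from different tables.

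At P40, INSL3-KI testis had far less RNA of the sperm tail genes than WT testis, and the size of the deficit ran from 9.30-fold for Odf4 to 611-fold for Smcp. In 8 of 10 genes the level fell, against 22.1% of 16677 tested genes called lower and 25.6% higher, and no member rose. The median over the 10 genes, as a log2 fold change, was −6.04, while that of all genes tested was 0.093. With libraries scaled to Sertoli genes, which moved the median of all genes to −2.0 and gave 11337 lower and 34 higher genes in place of 3690 and 4264, all 10 members were called lower. In each of the 10 genes, every INSL3-KI library lay below every WT library. The share of all genes without overlap is not given here, and 13200 of the 16677 genes had an unadjusted p under 0.05 (edgeR). In whole testis, fewer germ cells of a stage and less RNA per cell cannot be told apart.

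Both fibrous sheath anchoring proteins were among the most reduced. Akap4 had 12.8, 1.65 and 3.18 CPM in the 3 P40 INSL3-KI libraries, which are 0.546, 0.0705 and 0.136% of the WT mean. Its mean was 399-fold lower than in WT, with a log2 fold change of −8.62 (SE 0.97) and an adjusted p of 5.62e-04 (edgeR). Akap3 had 1406, 1427 and 1215 CPM in WT and 16.3, 2.50 and 4.04 CPM in INSL3-KI, a 177-fold lower mean, with a log2 fold change of −7.44 (SE 0.87) and an adjusted p of 6.19e-04. In both genes INSL3-KI replicate 1 was the highest of its group and still far below the lowest WT library.

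Of the outer dense fibre genes Odf1 and Odf2 fell and Odf4 did not pass the threshold. Odf1, which encodes a main protein of the fibres, had 6.88, 0.776 and 1.69 CPM in INSL3-KI, or 0.471, 0.0530 and 0.115% of the WT mean. The group mean was 469-fold lower than that of WT, with a log2 fold change of −8.85 (SE 1.01) and an adjusted p of 5.80e-04. Odf2 had 751, 179 and 187 CPM, which is 13.6, 3.26 and 3.39% of the WT mean, with a log2 fold change of −3.86 (SE 0.66) and an adjusted p of 0.00250. Odf4 had 68.2, 9.61 and 10.1 CPM against 287, 282 and 248 in WT. Its log2 fold change of −3.20 (SE 0.83) did not pass the threshold, with an adjusted p of 0.0126, although the 2 groups did not overlap. In each INSL3-KI library Odf2 and Odf4 thus kept a larger share of the WT level than Odf1.

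Smcp and Oaz3 were the lowest of the 10 relative to WT. Smcp had 8.11, 1.45 and 1.03 CPM in INSL3-KI, 611-fold below the WT mean, with a log2 fold change of −9.23 (SE 1.06) and an adjusted p of 5.85e-04. Oaz3 had 6.12, 1.13 and 1.32 CPM against 1879, 1802 and 1415 in WT, 595-fold lower, with a log2 fold change of −9.19 (SE 0.91) and an adjusted p of 4.13e-04. No INSL3-KI library exceeded 8.11 CPM for either gene, and the lowest WT library was at 1415 CPM for Oaz3 and 1956 CPM for Smcp.

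Of the tektin genes Tekt2 and Tekt4 fell and Tekt1 did not pass the threshold. Tekt2 had 47.6, 8.96 and 8.90 CPM in INSL3-KI against 526, 522 and 372 in WT, which gave −4.41 (SE 0.77) on the log2 scale with an adjusted p of 0.00268. Tekt4 had 37.3, 7.43 and 6.48 CPM against 474, 459 and 359, a log2 fold change of −4.63 (SE 0.78) with an adjusted p of 0.00229. Tekt1 had 115, 15.3 and 13.3 CPM against 534, 534 and 431 in WT, and its log2 fold change of −3.37 (SE 0.90) missed the threshold at an adjusted p of 0.0144. INSL3-KI replicate 1 was several times above both other INSL3-KI libraries in all 3 tektin genes. Without that library all 10 members were called lower, with Tekt1 at −5.04 (adjusted p = 3.02e-08, edgeR) and Odf4 at −4.71 (adjusted p = 1.47e-08). Leaving out WT replicate 1 instead left 5 members called, with Odf2 at an adjusted p of 0.0113, Tekt2 at 0.0117 and Tekt4 at 0.0104, and leaving out WT replicate 2 left 6, with Odf2 and Tekt2 at 0.0106 and 0.0111. For fits with a library left out, here and below, the share of all genes called is not given. Counts of members from those fits are therefore not read as particular to the members.

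Akap3 and Akap4, which fell together, and the 3 tektins are shown with the 120 bases before a RefSeq start on the gene's strand (GRCm38.p6), and capitals mark the letters searched for. Of the 10 genes 8 had an entry in the table of promoters used, and 3 motifs, chosen after the sequences were seen, were searched on both strands in the 250 bases before each start.
Akap3, chr6:126852978-126853097, plus strand: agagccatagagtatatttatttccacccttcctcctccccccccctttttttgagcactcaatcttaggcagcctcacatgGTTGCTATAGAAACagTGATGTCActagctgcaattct
Akap4, chrX:7067395-7067514, plus strand: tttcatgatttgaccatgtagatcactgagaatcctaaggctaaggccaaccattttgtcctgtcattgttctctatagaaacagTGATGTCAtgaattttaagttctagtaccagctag
Tekt1, chr11:72361883-72362002, minus strand: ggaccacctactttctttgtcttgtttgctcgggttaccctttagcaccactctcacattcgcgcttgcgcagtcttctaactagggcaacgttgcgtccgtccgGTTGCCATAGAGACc
Tekt2, chr4:126325689-126325808, minus strand: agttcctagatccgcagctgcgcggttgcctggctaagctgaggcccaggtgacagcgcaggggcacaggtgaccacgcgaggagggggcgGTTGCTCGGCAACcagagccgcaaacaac
Tekt4, chr17:25471470-25471589, plus strand: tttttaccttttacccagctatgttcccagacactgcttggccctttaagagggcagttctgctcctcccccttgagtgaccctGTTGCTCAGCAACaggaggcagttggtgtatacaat
The first motif was GTTGC, any 3 bases and GCAAC, the palindromic form that RFX transcription factors are known to bind. It was found before Tekt2 and Tekt4 and in 0.207% of 32851 promoters. The second was GTTGC, any 4 bases, G, any 2 bases and AC, and it was found before Tekt1 and Akap3 and in 1.39%. The third was TGA, any base and GTCA, similar to the cAMP response element, and it was found before Akap3 and Akap4 and in 7.49%. No match of 1 motif overlapped a match of another in these promoters. Akap3 and Akap4, on chromosomes 6 and X, share the 20-base run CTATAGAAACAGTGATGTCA, and the next longest run shared by any of the 28 pairs of members was 11 bases. In these 250 bases none of the 3 motifs was found for Odf2, Odf4 or Smcp. Akap4, Tekt1 and Tekt2 had 2, 2 and 3 starts, and a start of each, not printed here, held none of the motifs. The percentages count starts, whereas a member is named if any of its starts had a match. Counted by gene, the 3 motifs were found for 63, 433 and 2310 of 27025 genes. A match is a description of letters and no binding was measured.

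Marker lists of other testis cells moved with these genes in the same comparison. All 9 elongating spermatid markers and 8 of 10 round spermatid markers were lower, with median log2 fold changes of −9.36 and −6.90. None of 9 spermatocyte markers was called, at a median of −1.04. Their summed levels were nevertheless lower, at 476 to 2456 CPM (median 602) in INSL3-KI and 4325 to 4521 CPM in WT. All 6 Sertoli markers and all 7 macrophage markers were higher, with medians of 2.09 and 1.89. Summed levels of the Sertoli list were 1036 to 1507 CPM in INSL3-KI and 292 to 343 CPM in WT, and those of the elongating spermatid list were 1.5 to 34.8 CPM and 8628 to 10563 CPM. All genes of these lists and of the 7 Leydig markers were detected in P40 INSL3-KI testis, each with more than 3 counts in at least 1 library. The part of these shifts in the members' fold changes was not tested.

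At P23, INSL3-KI testis was again below the libraries labelled P23 WT, whose age is in doubt, in all 10 genes, with 7 called lower against 11.8% of 16603 tested genes called lower and 8.81% higher, and a median log2 fold change of −2.54. Of all 16603 genes tested, 9717 had an unadjusted p under 0.05 (edgeR). WT and INSL3-KI at P23 lie in different tables. Smcp had 4427, 4030.2 and 3979 CPM in WT and 109, 171 and 22.6 CPM in INSL3-KI, which gave −5.35 (SE 0.76) on the log2 scale with an adjusted p of 0.00296 (edgeR). Oaz3 had 2963, 2891 and 2881 CPM in WT and 90.5, 126 and 18.6 CPM in INSL3-KI, with a log2 fold change of −5.21, and Odf1 had 2707, 2640.4 and 2626 CPM and 92.7, 131 and 18.6 CPM, with −5.03. As shares of the WT mean, Odf1 stood at 3.49, 4.94 and 0.699% in the 3 INSL3-KI libraries, and Smcp and Oaz3 were close to this. Akap4 had 180.4, 261 and 30.04 CPM in INSL3-KI against 2971, 2783 and 2859 in WT, with a log2 fold change of −4.18 (SE 0.75) and an adjusted p of 0.00585. For Akap3, INSL3-KI libraries had 200.1, 317 and 45.0 CPM against 1527, 1513 and 1519 in WT, with a log2 fold change of −3.01 and an adjusted p of 0.00999, directly at the threshold.

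The other 5 genes kept a larger share of their WT level at P23. Odf2 was at 31.9, 36.5 and 14.1% of the WT mean in the 3 INSL3-KI libraries, a log2 fold change of −1.85 (SE 0.39) with an adjusted p of 0.00924. Tekt2 was at 24.8, 35.5 and 10.7%, with a log2 fold change of −2.07 and an adjusted p of 0.00767. Tekt1 was at 49.8, 56.3 and 20.3%, the largest shares of any member, with a log2 fold change of −1.24 that missed the threshold at an adjusted p of 0.0285. Odf4, at 39.2, 45.1 and 17.5%, gave −1.55 with an adjusted p of 0.0103, and Tekt4, at 32.6, 43.9 and 12.5%, gave −1.74 with 0.0151. In all 10 genes INSL3-KI replicate 3 was the lowest of its group. Without it 9 members were called lower and Tekt1, at −0.91, stayed under the 2-fold limit. Without INSL3-KI replicate 2 there were 8. Without INSL3-KI replicate 1, or without any 1 of the 3 WT libraries, no member was called, with Odf1 at adjusted p-values of 0.0149 to 0.0169. Scaling to Sertoli genes also left none called, with log2 fold changes of −2.08 for Tekt1 to −6.10 for Smcp and the smallest adjusted p at 0.0107 for Oaz3. Over all genes that scaling gave 1167 lower and 88 higher in place of 1966 and 1462, with the median at −0.94.

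Marker lists of other cells also differed in this comparison. Of 9 elongating spermatid markers 6 were called lower, with summed levels of 30.7 to 546 CPM in P23 INSL3-KI and 12759 to 15209 CPM in WT. Of 10 round spermatid markers 6 were lower, with sums of 374 to 1285 CPM and 3546 to 3599.9 CPM. None of 9 spermatocyte markers was called, with sums of 2429 to 4433 CPM and 4386 to 4456 CPM. Sertoli sums were 448 to 1037 CPM against 292 to 309 CPM, with 1 of 6 markers called higher, and macrophage sums were 187 to 352 CPM against 152 to 158 CPM, with none of 7 called. Their part in the members' values was not tested.

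INSL3-KO testis at P23, compared inside 1 table with the WT libraries labelled P23, gave larger fold changes in all 10 genes than INSL3-KI testis did at either P23 or P40. All 10 fell, against 33.4% of 16732 tested genes called lower and 31.1% higher, with a median of −9.79 on the log2 scale. With Sertoli scaling, 12320 genes were lower and 137 higher in place of 5584 and 5199, the median of all genes was −2.37, and all 10 members remained lower. Smcp had 17, 30 and 24 counts in the INSL3-KO libraries against 109849, 98853 and 95789 in WT, a log2 fold change of −12.73 (SE 0.10) with an adjusted p of 1.28e-13 (edgeR). Akap4 had 34, 43 and 17 counts against 73715, 68251 and 68833, with a log2 fold change of −11.80 (SE 0.14). Odf1 had 38, 66 and 55 counts against 67161, 64764 and 63216, with −10.93 (SE 0.09). All 3 were thus detected in each INSL3-KO library, at 17 to 66 counts. Akap3 and Oaz3 were in the same range, with log2 fold changes of −10.71 and −11.06. Odf2 kept the largest part, 83.3, 82.0 and 76.3 CPM or 1.52, 1.5 and 1.39% of the WT mean, with a log2 fold change of −6.03 (SE 0.08) and an adjusted p of 1.13e-12. Tekt2 kept 0.707, 0.588 and 0.704% and fell by 7.17 on the log2 scale. Tekt1, Odf4 and Tekt4 lay between, with log2 fold changes of −8.29, −8.24 and −8.88. In this comparison all 9 elongating spermatid, all 10 round spermatid and all 9 spermatocyte markers were lower too, with medians of −12.67, −9.77 and −2.91, and all 6 Sertoli and 7 macrophage markers were higher, at 2.36 and 2.43. Their part in the members' values was not tested.

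**Figure D2:**
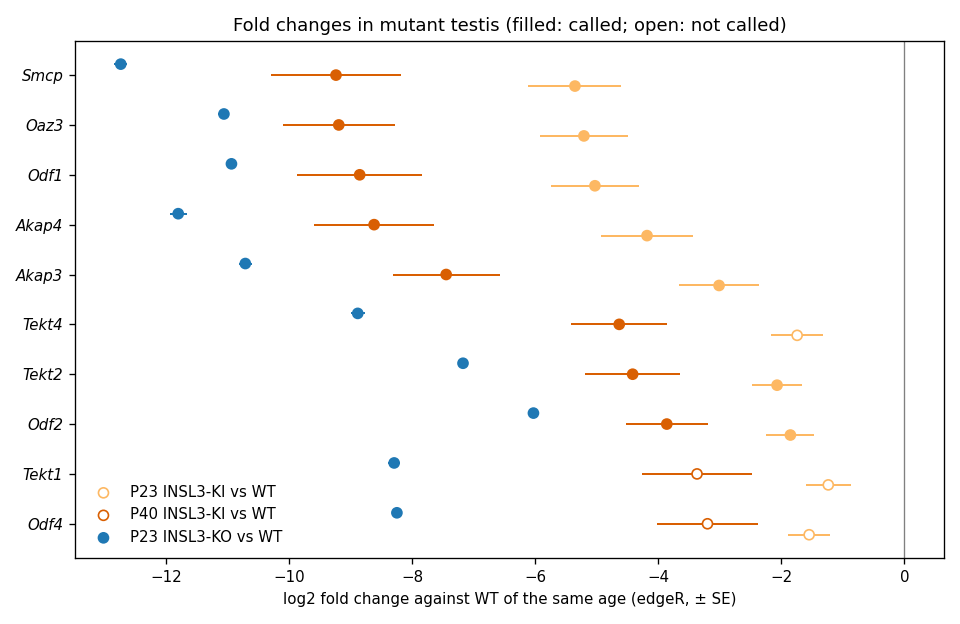
Log2 fold change (edgeR, bars ± SE) of each sperm tail gene against WT of the same labelled age for P23 INSL3-KI, P40 INSL3-KI and P23 INSL3-KO testis, ordered by the P40 value, with filled points for genes called and open points for genes not called. Smcp, Oaz3, Odf1, Akap4 and Akap3 lie between −3.01 and −5.35 in P23 INSL3-KI and between −7.44 and −9.23 in P40 INSL3-KI, left of the other 5 genes at each.

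The order of the 10 genes by fold change was alike in comparisons that share no library. Between INSL3-KI at P40 and at P23, each against its own WT, Pearson's r across the 10 genes was 0.969 and Spearman's rho 0.952, and between P40 INSL3-KI and P23 INSL3-KO they were 0.90 and 0.867. These describe 10 genes that share the same tissue and cells. In each of the 3 comparisons Smcp had the most negative fold change, and Odf1, Akap3, Akap4, Oaz3 and Smcp all had more negative values than Odf2, Odf4, Tekt1, Tekt2 and Tekt4.

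Directly compared at P23, INSL3-KI testis had more RNA of all 10 genes than INSL3-KO testis, against 25.2% of 16379 tested genes called higher and 13% lower. The difference ran from a log2 fold change of 4.23 (SE 0.38) for Odf2 to 7.75 (SE 0.85) for Akap3, with adjusted p-values of 1.56e-04 to 8.92e-04 by edgeR. Akap4 had 180.4, 261 and 30.04 CPM in INSL3-KI and 0.907, 0.989 and 0.411 CPM in INSL3-KO, and Tekt1 had 273, 308 and 111 CPM and 1.49, 1.96 and 1.55 CPM. No library of 1 mutant overlapped the other in any of the 10 genes. The share of all genes without overlap is not given here, and 11393 of the 16379 genes had an unadjusted p under 0.05 (edgeR). The 2 mutants lie in different tables. All 9 spermatocyte, 10 round spermatid and 9 elongating spermatid markers were also higher in INSL3-KI, at medians of 2.58, 7.33 and 7.44. All 7 macrophage and all 7 Leydig markers were lower in INSL3-KI, at −1.65 and −2.05, with Leydig sums of 389.9 to 654 CPM against 2112 to 2153 CPM. Sertoli sums were 448 to 1037 CPM against 1549 to 1573 CPM, with 1 of 6 markers called lower. Their part in the members' values was not tested.

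Dividing each gene by summed marker levels of the same library removes the library's scaling and puts the genes beside the germ cell stages. Relative to 9 spermatocyte markers, all 10 genes were lower in every P40 INSL3-KI library than in any P40 WT library. The share of all genes without overlap on this scale is not given here, so the count is not read as particular to the members. Smcp was 0.330, 0.241 and 0.216% of the spermatocyte sum in INSL3-KI and 51.1, 51.0 and 44.5% in WT, 189-fold lower. Tekt1 was 4.68, 2.54 and 2.80% against 12.4, 11.8 and 9.81%, 3.50-fold lower, and Odf4 was 2.92-fold lower. INSL3-KI replicate 1, with the highest CPM, was also the highest of its group on this scale for Smcp and Tekt1, by a smaller margin. The exact permutation test over 3 and 3 libraries gave p = 0.1 (two-sided) for each, the smallest value it allows.

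Relative to 10 round spermatid markers the genes divided. Smcp was 2.49, 2.72 and 1.90% of the round spermatid sum in P40 INSL3-KI and 76.8, 77.7 and 87.5% in WT, 34.3-fold lower. Oaz3 was 29.6-fold lower, Odf1 25.5-fold, Akap4 21-fold and Akap3 8.99-fold. Tekt1 went the other way, with 35.2, 28.7 and 24.7% in INSL3-KI and 18.6, 18 and 19.3% in WT. Odf4 was 20.9, 18 and 18.6% against 9.98, 9.50 and 11.1%, and Odf2 was 230.3, 336 and 347% against 207, 194 and 215%, both higher in INSL3-KI without overlap. Tekt2 overlapped between the groups, and Tekt4 was 1.29-fold lower. At P23, INSL3-KI libraries were lower than WT for the same 5 genes, from 2.38-fold for Akap3 to 12.3-fold for Smcp, and higher for Odf4, Tekt1 and Tekt4. For P23 INSL3-KO, 8 of 10 genes were lower relative to the round spermatid sum, Odf2 was 2.39-fold higher and Tekt2 overlapped. Each of these had an exact permutation p of at least 0.1, the limit of the design. Shares of all genes on this scale are not given here, so these counts are not read as particular to the members. In P23 INSL3-KO the round spermatid sum was only 21.5 to 22.2 CPM, against 3546 to 3599.9 CPM in WT. Catsper4 and Sun5 had at most 3 counts there. In libraries labelled P8 INSL3-KO that sum was 8.58 to 11.2 CPM, with Odf2 at 59.3 to 66.2 CPM. The P23 INSL3-KO ratios are thus not read as placing genes beside round spermatids. P40 INSL3-KI sums were low too, at 53.4 to 326 CPM, with Odf2 at 179 to 751 CPM. The part of Odf2 RNA from cells other than spermatids in its P40 ratios was not tested.

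**Figure D3:**
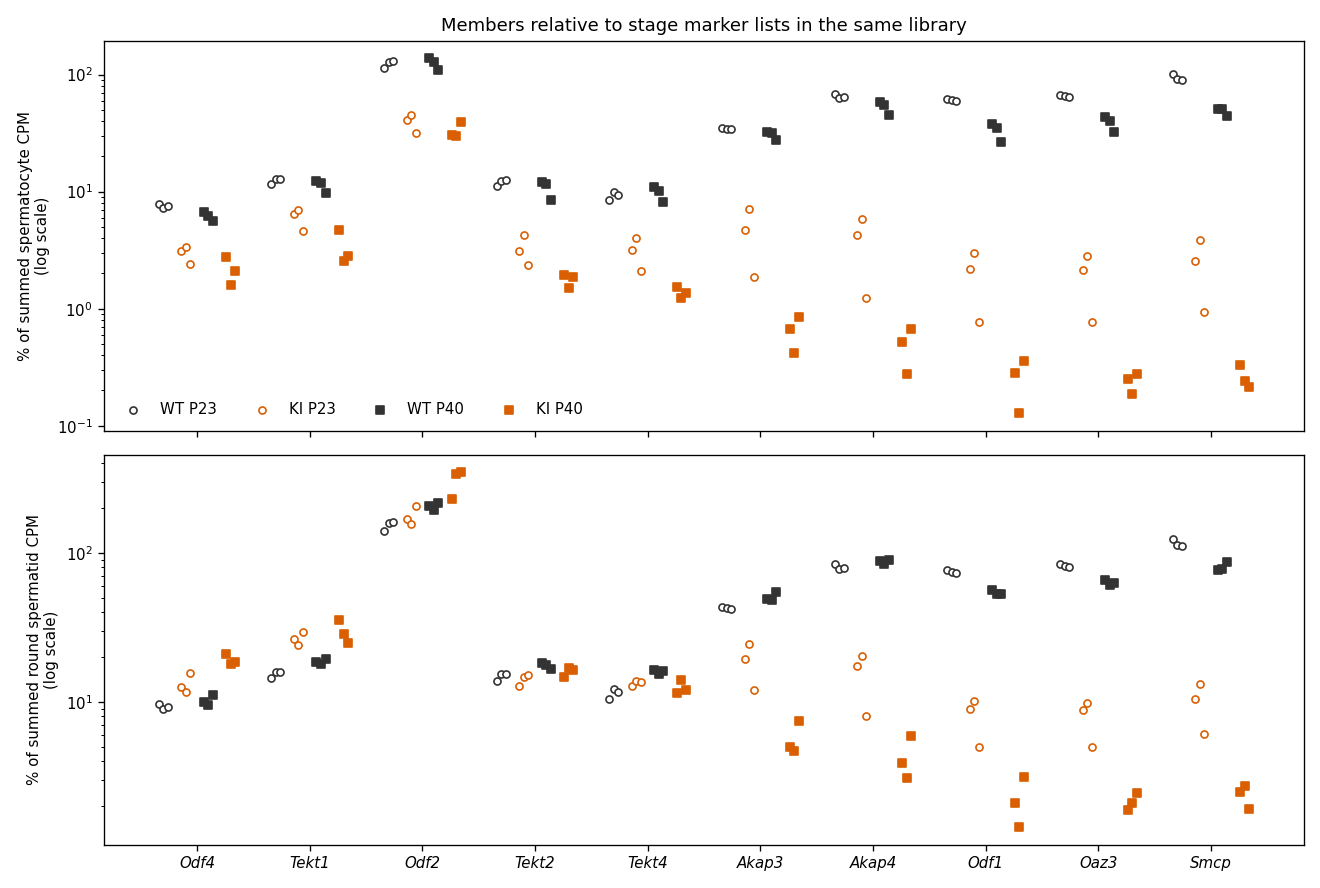
Each sperm tail gene as a percentage of the summed CPM of 9 spermatocyte markers (top) or 10 round spermatid markers (bottom) of the same library, on log axes, for 3 WT and 3 INSL3-KI testis libraries at P23 (open circles) and P40 (filled squares). Against the round spermatid sum, Odf4, Tekt1 and Odf2 lie higher in P40 INSL3-KI than in WT, while Akap3, Akap4, Odf1, Oaz3 and Smcp lie 8.99- to 34.3-fold lower. That sum was only 53.4 to 326 CPM in P40 INSL3-KI, and the part of Odf2 RNA from other cells was not tested.

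At P8, before spermatids form, most members were at or near the limit of detection and their differences between genotypes were few. In INSL3-KI against WT, 6 of the 10 genes passed the filter on low counts, which left out Odf1, Odf4, Akap4 and Smcp, and 1 of the 6, Akap3, rose, against 3.03% of 15702 tested genes called higher and 3.25% lower. Akap3 had 11, 5 and 14 counts in WT and 91, 108 and 82 counts in INSL3-KI, with a log2 fold change of 3.21 (SE 0.50) and an adjusted p of 0.00670 (edgeR). The 3 INSL3-KI libraries all lay above the 3 WT libraries. With 5 counts in 1 WT library, under the filter's minimum of 10, Akap3 passed the filter through the INSL3-KI libraries, where it was high. Its call is thus not read as a result about the members. Leaving out any 1 of the 6 libraries ended the call, with the adjusted p between 0.0106 and 0.0349 and the log2 fold change for Akap3 between 2.90 and 3.53. Oaz3, with 8, 4 and 4 counts in WT and 27, 29 and 22 in INSL3-KI, gave 2.25 with an adjusted p of 0.0206. Oaz3 too passed the filter through the INSL3-KI libraries.

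INSL3-KI replicate 2 held the other high values at P8. It had 550 counts of Odf4 where the other INSL3-KI libraries had 0 and 2, and 1238 counts of Tekt1 where they had 45 and 28. Tekt4 had 116 counts against 15 and 0, and Odf2 had 6773 against 3118 and 3142. Tekt2 had 283 against 127 and 161. In the same library Akap4 had 6 counts against 7 and 5, Smcp 2 against 2 and 0, and Oaz3 29 against 27 and 22. Odf1 had 14 against 3 and 2, at least 5.23-fold higher. Without it the log2 fold changes at P8 were −0.24 for Tekt1 and −0.53 for Tekt4, in place of 3.52 and 2.14. Spermatocyte markers were higher in the same comparison, with 5 of 9 called and a median of 3.39, and their summed level was 99.2 to 157 CPM in P8 WT.

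The libraries labelled P8 INSL3-KO differed from WT by the call in 1 of 7 members that passed the filter. Oaz3 had 53, 76 and 60 counts against 8, 4 and 4 in WT, a log2 fold change of 3.40 (SE 0.48) with an adjusted p of 9.45e-04 by edgeR, against 5.44% of 15723 genes called higher and 8.37% lower. In every WT library Oaz3 lay under the filter's minimum count. It passed the filter through the libraries labelled INSL3-KO, where it was high. Its call is thus not read as a result about the members. WT and INSL3-KO at P8 also lie in the 2 tables whose Oaz3 models differ. Odf2, at 66.2, 59.3 and 59.5 CPM against 49.7, 48.9 and 49.4, gave 0.35 (SE 0.07) with an adjusted p of 0.00387, under the 2-fold limit. Akap3, with 34, 33 and 45 counts, lay above all WT libraries and gave 1.75 with an adjusted p of 0.0211. Spermatocyte markers were higher here too, 6 of 9 called at a median of 2.57. Summed levels of 5 epididymis markers, of which Lcn8 and Lcn9 had at most 3 counts in every P8 testis library, were 85.3, 90.7 and 83.8 CPM in the libraries labelled P8 INSL3-KO, 0, 29.7 and 42.3 CPM in P8 WT and 0.0879, 0.404 and 87.3 CPM in P8 INSL3-KI, and the part of these in the members' values was not tested. Between the 2 mutants at P8 none of the 6 members tested was called by edgeR, against 2.76% of 15728 genes called higher and 1.16% lower. Of the members 3 had an unadjusted p under 0.05, and DESeq2 called 1 higher.

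**Figure D4:**
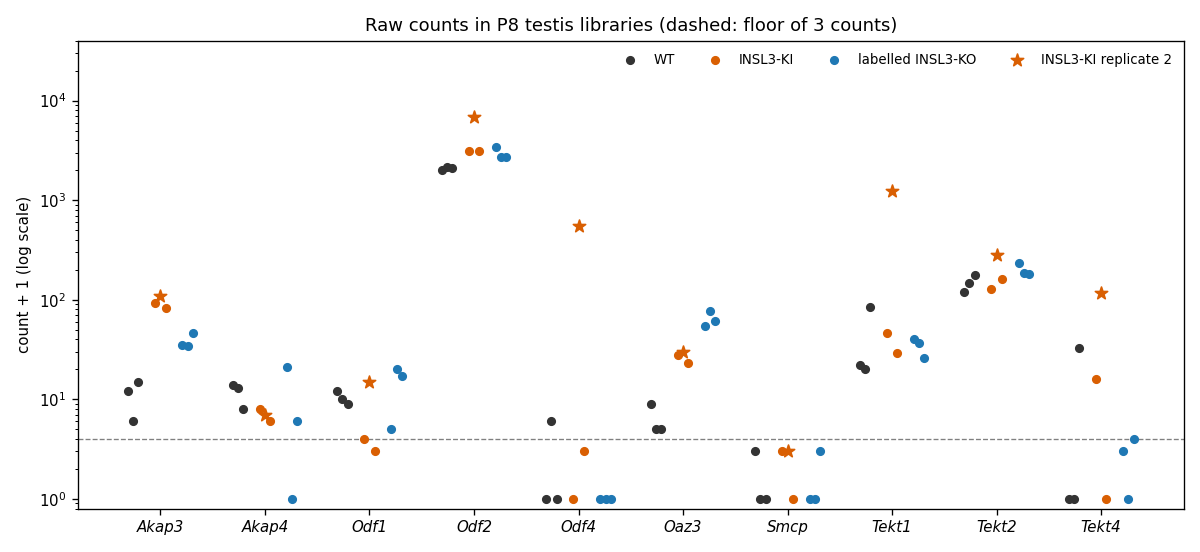
Raw counts plus 1, on a log axis, of the 10 sperm tail genes in 9 P8 testis libraries, 3 each of WT, INSL3-KI and libraries labelled INSL3-KO, with INSL3-KI replicate 2 as a star and the floor of 3 counts as a dashed line. The star stands apart for Odf4, Tekt1, Tekt4 and Odf2 (550, 1238, 116 and 6773 counts) and lies with its group for Akap3, Akap4, Oaz3 and Smcp.

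Each mutant was also compared between ages, and the courses of the mutants were not tested against each other. In INSL3-KI, 7 of the 10 genes rose from P8 to P23, against 5.7% of 16412 genes called higher. Akap4 rose from 0.154, 0.152 and 0.102 to 180.4, 261 and 30.04 CPM, a log2 fold change of 10.01 (SE 1.04) with an adjusted p of 0.00864 (edgeR), and Odf2 from 68.5, 171 and 64.1 to 1746, 1998 and 771 CPM, with 3.76 (SE 0.57) and 0.00881. Odf4, Tekt1 and Tekt4 were not called, with adjusted p-values of 0.107, 0.0658 and 0.0171. Without P8 INSL3-KI replicate 2 all 10 were called, and without P8 replicate 1 or 3 or P23 replicate 1 or 2 none was. From P23 to P40 the INSL3-KI mean of every member was lower, by 3.85-fold for Odf4 to 28.5-fold for Smcp. None passed the test with edgeR, with log2 fold changes of −1.97 to −4.86 and adjusted p-values of 0.0991 to 0.117. No gene of the 16328 tested was called in that comparison by edgeR (percent called 0), while 7615 had an unadjusted p under 0.05 and DESeq2 called 875 lower and 301 higher. Of the members 8 had an unadjusted p under 0.05 and DESeq2 called 7 lower. The ranges at the 2 ages did not overlap for 8 genes, and overlapped for Odf4 and Tekt1.

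The libraries labelled INSL3-KO had low levels at both P8 and P23, with Insl3 reduced at P8 and near 0 at P23, so that the 2 ages may not share a genotype. Of the 10 genes 5 rose, against 12% of 15773 genes called higher. Odf4 went from 0 counts in all 3 P8 libraries to 44, 47 and 37 at P23, at least 16.5-fold higher. Smcp was at least 9.04-fold and Tekt4 at least 12.9-fold higher by the same floor, and Odf1 and Tekt1 had log2 fold changes of 2.21 (SE 0.56) and 1.26 (SE 0.35). Akap3, with 0.664, 0.731 and 0.985 CPM at P8 and 1.04, 0.966 and 0.604 at P23, gave 0.15 with an adjusted p of 0.766, and Oaz3 gave −0.03 with 0.940. Leaving out P23 replicate 2 or 3 or P8 replicate 3 left Odf4, Smcp and Tekt4 called. Over the same interval WT means rose 111-fold or more for every member, across the tables.

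An interaction term compared the INSL3-KI effect between ages. Of the 6 members that passed the filter at P8, Odf2, Akap3, Oaz3 and Tekt2 had a more negative effect at P40 than at P8, within the first table, against 22.5% of 17354 genes called in that direction. Oaz3 gave a difference of −11.53 (SE 0.94) on the log2 scale with an adjusted p of 1.11e-05, and Akap3 gave −10.75 (SE 0.96) with 1.77e-05. In P8 WT, however, Oaz3 had 4 to 8 counts, under the filter's minimum of 10, and it passed at P8 through INSL3-KI libraries with 22 to 29. Its value is thus not read as an effect at P8. Akap3 had 5 to 14 counts in P8 WT and likewise passed at P8 through INSL3-KI libraries. Its value is not read as an effect at P8 either. Tekt1 and Tekt4 missed the threshold, at 0.0112 and 0.0128. Odf1, Odf4, Akap4 and Smcp did not pass the filter for the comparison at P8 and entered this fit through P40 WT, so nothing is read here from their values about an effect at P8. Without any 1 of the 12 libraries in this fit, the call remained for Odf2, Akap3, Oaz3 and Tekt2. Between P23 and P40 no member was called by edgeR, with differences of −1.66 for Odf4 to −4.45 for Akap4 and adjusted p-values of 0.0168 to 0.180, against 1.97% of 17191 genes called lower and 0.878% higher. Of the members 8 had an unadjusted p under 0.05 and DESeq2 called 6. Without P40 INSL3-KI replicate 1 all 10 were called, and without P23 INSL3-KI replicate 3 there were 6 called.

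Odf2 gave a second readout, since the number of counts per FPKM unit depends on the transcript length used for the FPKM. This implied length was set against the median of 8836 genes with more than 100 counts in every library. P23 WT and INSL3-KO libraries lie in the second table, where implied lengths of other members differed too. That of Akap3 was 1.15 to 1.16 there and 1.06 to 1.11 in the first table. Odf2 lengths compared across the tables may thus rest on unlike gene models, and the part of this was not tested. It was 1.18, 1.17 and 1.18 in P8 WT testis, 0.788, 0.79 and 0.786 in P23 WT and 0.856, 0.857 and 0.864 in P40 WT. In INSL3-KI testis it was 1.12, 1.00 and 1.06 at P8, 0.828, 0.874 and 0.909 at P23 and 0.875, 1.07 and 1.07 at P40. In P8 and P40 INSL3-KI testis the library with the most Odf2 had the shortest implied length, whereas at P23 replicate 2 had the most Odf2, at 1998 CPM, and replicate 1 the shortest length, at 0.828. P40 replicate 1, with 751 CPM, stood at 0.875, while the other 2 libraries of its group, with 179 and 187 CPM, had 1.07. The libraries labelled INSL3-KO had 1.14, 1.12 and 1.16 at P8, where Insl3 was not absent, and 1.17, 1.11 and 1.22 at P23. Gubernaculum libraries ranged from 1.04 to 1.29. Which Odf2 transcripts were present was not measured here, and the annotation holds 25 for this gene.

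**Figure D5:**
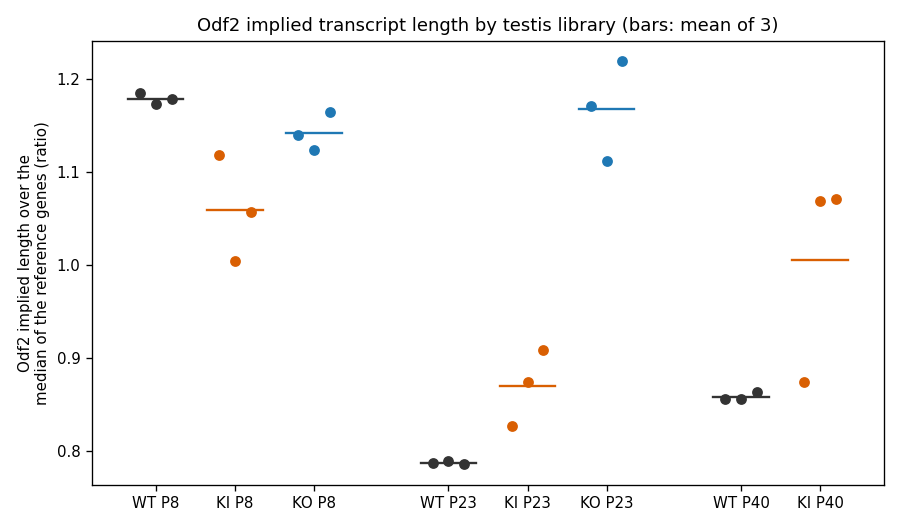
Implied length of Odf2 (counts per FPKM unit over the median of 8836 reference genes, a ratio) in 24 testis libraries, with 1 point per library and a bar at the mean of 3. The P23 and P40 WT libraries lie between 0.786 and 0.864, and the P8 WT and all libraries labelled INSL3-KO lie between 1.11 and 1.22. The P23 WT and INSL3-KO libraries come from the second table and the others from the first.

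Other genes of the same structures, from lists set by function, were counted in the same comparisons, in which 22.1% (P40 INSL3-KI), 11.8% (P23 INSL3-KI) and 33.4% (P23 INSL3-KO) of all genes tested were called lower. Of 9 other fibrous sheath genes, 7 were lower in P40 INSL3-KI (median log2 fold change −6.02), 6 in P23 INSL3-KI (−2.31) and 9 in P23 INSL3-KO (−8.51). Gapdhs, the sperm glycolytic enzyme bound to the sheath, gave −8.35, −4.90 and −11.78. Ropn1l gave −3.36 and −1.67 in INSL3-KI, neither called, and Spa17 fell by 3.74 and 2.31. Of 8 tested of the 9 other outer dense fibre genes, 7 were lower in P40 INSL3-KI, 5 in P23 INSL3-KI and 8 in P23 INSL3-KO, with Spag4 at −6.77, −3.37 and −8.37, Odf3 at −8.13, −3.44 and −10.89, and Ccdc42 called only in INSL3-KO. Of 7 mitochondrial sheath genes 5 were lower in P40 INSL3-KI, 4 in P23 INSL3-KI and 6 in P23 INSL3-KO, and Gpx4, the selenoprotein that is structural in the capsule, gave −2.95, −1.59 and −3.37. Of 12 other tektins and doublet proteins 9, 3 and 12 were lower in the same order of comparisons, with medians of −3.29, −1.45 and −6.59.

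For genes of the partners of Akap3, Akap4 and Oaz3, the shares called in P40 INSL3-KI lay near those of all genes. Their shares in the other comparisons are not given here. Of 6 protein kinase A subunit genes, whose products Akap3 and Akap4 anchor, 2 were lower and 2 higher in P40 INSL3-KI, where 22.1% of all genes were lower and 25.6% higher. Prkar2a, a regulatory subunit, had log2 fold changes of −3.30 in P40 INSL3-KI, −3.74 in P23 INSL3-KI and −3.47 in P23 INSL3-KO, all called, whereas Prkar1a and Prkaca lay between −0.18 and 0.19 and were not called. Among 9 ornithine decarboxylase and antizyme genes, 2 were lower and 2 higher in that comparison. Azin2, an antizyme inhibitor, gave −5.83, −4.88 and −5.79, and Odc1, the enzyme that antizymes inhibit, gave −1.75, −0.96 and −2.27, of which the P23 INSL3-KI value was not called. Oaz1, the antizyme of most tissues, gave 0.65, 0.15 and 0.94, none called.

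Across the 24 testis libraries, the gene whose log2 CPM followed a member most closely, among 11083 genes with a mean of at least 10 CPM, was Gpx4 for Odf1 (Pearson's r 0.994), Ppp1r32 for Odf2 (0.997) and Slc9c1 for Odf4 (0.997). Akap3 was nearest to Ppef1 (0.993) and Akap4 to Ccdc54 (0.994). Oaz3 was nearest to Mllt11 (0.996), Smcp to Dnajc5b (0.997), Tekt1 to Ccdc65 (0.997), Tekt2 to Ppp1r32 (0.996) and Tekt4 to Tekt3 (0.991). Between 366 and 1439 genes exceeded 0.95 for a given member, so that the nearest gene is 1 of many that share these libraries.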

How the data were processed

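RNA was sequenced from testis and gubernaculum of WT, INSL3-KI and INSL3-KO mice, with 3 biological replicates a group. The authors extracted RNA with TRIzol, made mRNA libraries and aligned read pairs with HISAT2, and the submitters' processing notes name GRCm38. The counter and its annotation are not given in the sources used here. The authors deposited raw read counts per gene in 2 tables of 38822 and 58374 entries, and beside them FPKM values that they scaled by depth and gene length before deposition.

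The 2 tables were joined on gene identifiers, giving 21561 shared genes, and testis libraries held 33000204 to 42629270 counts (median 38405047). Counts were tested with edgeR 4.0.16 (quasi-likelihood test, TMM scaling, R 4.3.3) after its filter on low counts (minimum 10 in a library, 15 in total), with only the groups compared in each fit and a prior count of 2. A gene was called, or said to have risen or fallen, at an adjusted p under 0.01 (Benjamini-Hochberg over all genes tested) with at least a 2-fold change, as in the study's methods. CPM used TMM factors over 24 testis libraries. Where every library of a group had at most 3 counts, folds were computed against 3 counts per library and are bounds that cover counting error only. The labels call the replicates biological, and whether animals were pooled is not stated in them.

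The alternatives were DESeq2 1.42.0, scaling by library size or by Sertoli genes, no filter, 1 fit of all testis groups, a replicate block, limma 3.58.1 on log2(FPKM + 1) or log2(FPKM + 0.1), an adjusted p under 0.05, and leaving out each replicate. Levels relative to stages were a member's CPM over the summed CPM of a marker list in the same library, compared with exact permutation tests. The 3 tools were tested on simulated data. Tables and figures were made with Python 3.11.15, pandas 2.3.3, scipy 1.17.1 and matplotlib 3.10.9. Promoters and their coordinates were taken from RefSeq.

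The 10 members and all lists were chosen with earlier results of these data known. All members are named. Of each related list at most 3 genes are named, those with the highest mean FPKM in P40 WT, and for each member the gene of most similar log2 CPM among genes with a mean of at least 10 CPM. The gubernaculum libraries entered no comparison. Columns of all 39 libraries were matched to their labels.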

Additional observations from a re-analysis of the deposited data

Results flagged for a closer look

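An interaction term in edgeR compared the INSL3-KI effect between P8 and P40. It was called for 4 genes that passed the filter on low counts at both ages. The difference in log2 fold change was −5.04 for Odf2, −10.75 for Akap3, −11.53 for Oaz3 and −4.92 for Tekt2. Oaz3 had 4 to 8 counts in P8 WT and Akap3 had 5 to 14. Both passed at P8 through the INSL3-KI libraries, so their values say little of an effect at P8. The same term gave −8.41 for Odf1, −10.08 for Odf4, −7.89 for Akap4 and −10.19 for Smcp, but these 4 did not pass the filter on low counts for the comparison at P8 and entered through the P40 libraries, so their values say little of an effect at P8. The value for Odf4 rested on 1 library, since without P8 INSL3-KI replicate 2 it was −2.58 with an adjusted p of 0.577.

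Outside the testis, transcripts of sperm tail genes were found in gubernaculum, a tissue with no germ cells of its own. For 7 genes the highest count in P8 WT was above every INSL3-KI and INSL3-KO gubernaculum library, while Odf2, Tekt2 and Tekt4 had up to 2070, 183 and 52 counts in P8 WT and more in a mutant library. Replicate 1 of P8 WT had 271 counts of Odf1, 37 of Odf4, 176 of Akap3, 319 of Akap4, 284 of Oaz3, 299 of Smcp and 101 of Tekt1. Replicate 2 had 59, 15, 83, 125, 57, 91 and 86 counts of the same genes, and replicate 3 had 0, 3, 6, 5, 3, 0 and 35. In P23 WT gubernaculum, Tekt1 had 57, 34 and 24 counts, and replicate 1 had 13 of Odf1, 16 of Akap4, 23 of Oaz3 and 9 of Smcp. No gubernaculum library of INSL3-KI or INSL3-KO mice had more than 2 counts of Odf1, 9 of Odf4, 12 of Akap3, 14 of Akap4, 21 of Oaz3, 6 of Smcp and 19 of Tekt1. The counts in P8 WT replicate 1 are 0.506% (Akap3) to 0.786% (Tekt1) of the mean count in P40 WT testis, while P8 WT testis itself had means of 0.667 (Smcp) to 41.3 (Tekt1). Summed counts of the 9 elongating spermatid markers were 1489, 433 and 37 in the 3 P8 WT gubernaculum libraries, 169, 15 and 39 in those of P23 WT and 7 to 45 in the INSL3-KI and INSL3-KO gubernaculum libraries of P8 and P23. Which cells or libraries these transcripts came from was not tested.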

How the results depend on the processing

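Counts of members called in P23 INSL3-KO against WT, P23 INSL3-KI against INSL3-KO, and WT at P23 or P40 against P8 were 10 under every alternative run, single libraries left out included, and that for WT at P40 against P23 was 0 throughout. The count of 8 for P40 INSL3-KI against WT ran from 5 to 10 when 1 library was left out. Other counts moved. For P8 INSL3-KI against WT (1 member) DESeq2 gave 2, an adjusted p under 0.05 gave 2, limma on log2(FPKM + 0.1) gave 2, limma on log2(FPKM + 1) gave 0, the replicate block gave 0 and leaving out 1 library 0. For P8 INSL3-KO against WT (1) an adjusted p under 0.05 gave 2, and leave-outs 1. The call for Oaz3 there is not read as a result about the members, since Oaz3 passed the filter through the INSL3-KO libraries. For P8 INSL3-KI against INSL3-KO (0) an adjusted p under 0.05 gave 2, DESeq2 1 and 1 fit of all testis groups 1. For P23 INSL3-KI against WT (7) Sertoli scaling gave 0, the replicate block 3 and leave-outs 0 to 9. For INSL3-KI at P23 against P8 (7) Sertoli scaling gave 0 and leave-outs 0 to 10, and at P40 against P23 (0) DESeq2 and 1 fit gave 7 each. For INSL3-KO at P23 against P8 (5) Sertoli scaling gave 3, 1 fit 1, limma on log2(FPKM + 1) 0 and leave-outs 3 to 5. The INSL3-KI effect at P40 against P8 (8) ran from 5 to 10 in leave-outs. That count of 8 includes Odf1, Odf4, Akap4 and Smcp, which did not pass the filter at P8 and from which no effect at P8 is read. Nor is an effect at P8 read from Akap3 and Oaz3, which passed there through the INSL3-KI libraries. At P40 against P23 (0) the INSL3-KI effect gave 6 with DESeq2, 6 at an adjusted p under 0.05, 5 with 1 fit and 0 to 10 in leave-outs. The causes were not tested. Same-numbered replicates did not deviate together in every pair (correlations of 0.28, −0.25 and 0.39 in P40 INSL3-KI and WT), so the numbers were not taken as pairs.

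Of the members' log2 fold changes, 1946 kept their direction and side of the threshold over all alternatives, 131 lost the call, 107 gained it and 21 changed sign, none of them called. In P8 INSL3-KI against WT, leave-outs gave −0.24 to 4.59 for Tekt1, −0.095 to 0.65 for Tekt2 and −0.53 to 8.59 for Tekt4. In P8 INSL3-KO against WT they gave −0.029 to 0.82 for Odf1, −2.12 to 0.021 for Akap4 and −0.80 to 0.59 for Tekt1. In P8 INSL3-KI against INSL3-KO, Tekt2 gave −0.43 to 0.32, and −0.034 with the replicate block. Between P23 and P40 in WT, Odf2 gave −0.0042 to 0.14, −0.023 with Sertoli scaling and −0.020 with either limma fit, while leave-outs gave −0.13 to 0.0035 for Tekt1 and −0.20 to 0.017 for Tekt2. Between P8 and P23 in INSL3-KO, Odf2 gave −0.066 with Sertoli scaling, and Akap3 gave −0.11 with library size alone, −0.31 with Sertoli scaling, −0.029 with limma on log2(FPKM + 1) and −0.10 with limma on log2(FPKM + 0.1). Oaz3 gave −0.19 to 0.16 in leave-outs.

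Depth limits the P8 values, with 5 to 14 counts of Akap3 and 4 to 8 counts of Oaz3 in the WT libraries. Scaling to Sertoli genes moved the median of all genes by up to −2.37 (P23 INSL3-KO against WT) and 2.21 (WT at P23 against P8).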
